A study of Homo sapiens with 12 samples.

Results

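HCC4006 is a human lung adenocarcinoma cell line known to carry an activating EGFR deletion. Its course from attached culture to 7 days without attachment rests on 3 of the 12 RNA-seq libraries of the study, taken as the libraries whose labels name HCC4006. The day 1 and day 7 libraries come from trypsinized cells kept on an ultra-low attachment plate for 1 or 7 days, and the attached library from untreated cells in ordinary culture, with no time label. The other 9 libraries hold the same 3 states of NCI-H2009, LC-2/ad and NCI-H2228, also lung adenocarcinoma lines. All 12 shared RPMI-1640 medium with fetal bovine serum, antibiotics, RNeasy extraction and the SMART-Seq v4 PLUS kit. Each state of a line is 1 library. Differences within HCC4006 therefore carry no test, and loss of attachment, trypsin, replating and time in culture cannot be told apart.

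Epithelial cells anchored to a matrix signal through integrins, focal adhesions and the actin cytoskeleton to growth and survival pathways, among them YAP and TAZ, and most normal epithelial cells die by anoikis when that anchor is lost. Carcinoma cells often survive as floating aggregates, where cell contacts, access to medium and polarity differ from a monolayer. Lung adenocarcinoma cells can also carry transcripts of secretory airway cells, of surfactant-producing alveolar type 2 cells and of antigen presentation.

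Epithelial transcripts were high in the 3 HCC4006 libraries, as the label has it. EPCAM, an epithelial adhesion molecule, stood at 650 TPM attached, 719 TPM at day 1 and 701 TPM at day 7. TPM is a share of the library's transcripts after correction for transcript length. The keratin gene KRT8 stood at 1396 TPM attached, 1432 TPM at day 1 and 798 TPM at day 7. EGFR stood at 125, 94.6 and 112 TPM in the same order. Of 12 leukocyte markers 5 were at 0 TPM in the 3 HCC4006 libraries, CD3E, CD3D, MS4A1, CD163 and NKG7, and PTPRC stayed at or below 0.834 TPM. The summed leukocyte list was 39.1 TPM attached, 90.2 TPM at day 1 and 120 TPM at day 7, most of it CD14 and CD68. The 9 fibroblast markers summed to between 5.83 and 7.54 TPM, with DCN and FAP at 0, and the 7 endothelial markers to between 1.57 and 7.92 TPM, with TEK and EMCN at 0. The part of such RNA in the results below was not tested. Estimated counts per library ranged from 31134389 to 41881984 over the study and from 33020807 to 38357438 in HCC4006. Near-identical or overlapping genes are uncertain, since the counting method is not given in the sources used here.

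Differences in HCC4006 were moderate in number at day 1 and more numerous at day 7. At day 1 against attached, 1201 genes stood at least 2-fold higher (6.96% of the 17268 genes with at least 1 CPM in a library of the study) and 1145 at least 2-fold lower (6.63%). CPM is a count scaled to the library total. At day 7 against attached, 1650 genes stood higher (9.56%) and 1454 lower (8.42%). At day 7 against day 1, 1324 genes stood higher (7.67%) and 1152 lower (6.67%). Differences of at least 16-fold were few at day 1, 14 higher and 15 lower, and at day 7 against attached they numbered 67 higher and 47 lower. The day 1 and day 7 comparisons share the attached library, and both day 7 comparisons share the day 7 library. In bulk RNA, fewer cells of a kind and less RNA per cell cannot be told apart.

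**Figure D1:**
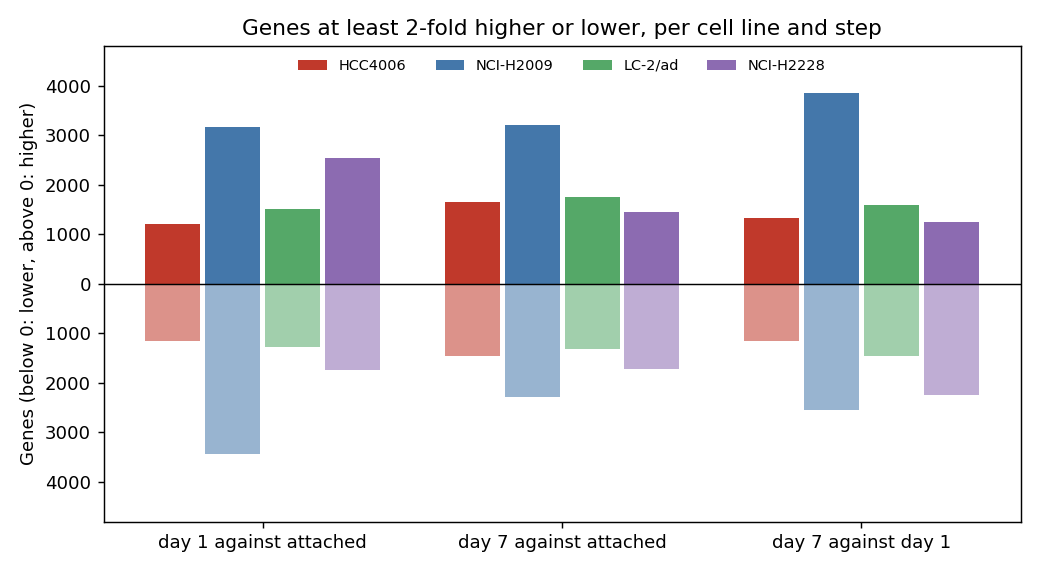
Genes at least 2-fold higher (above 0) or lower (below 0) in each line and step, from differences of log2 CPM between single libraries, with 1 bar per line. HCC4006 had 2346 such genes in either direction at day 1 against attached, fewer than each other line, and NCI-H2009 had 6607.

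In either direction, HCC4006 had 2346 genes past 2-fold at day 1 (13.6%), against 6607 in NCI-H2009, 2782 in LC-2/ad and 4265 in NCI-H2228. For day 7 against attached, HCC4006 had 3104 such genes (18%), against 5497, 3069 and 3187 in the same 3 lines. The median size of a difference, whatever its sign, was 0.33 on the log2 scale in HCC4006 at day 1, against 0.74 in NCI-H2009, 0.35 in LC-2/ad and 0.50 in NCI-H2228. At day 7 it was 0.37 in HCC4006 against 0.63, 0.39 and 0.37. HCC4006 thus had the fewest genes past 2-fold at day 1, and at day 7 stood close to LC-2/ad and NCI-H2228. With no repeat of any state, whether these counts differ beyond library error cannot be tested.

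The order of the 3 levels was next described for the 4513 genes whose highest and lowest HCC4006 library differed at least 2-fold. The most frequent order was attached, day 1, day 7 from low to high, with 1190 genes (26.4%), and the next was its mirror image, day 7 lowest and attached highest, with 864 genes (19.1%). The orders with day 7 in the middle held 592 genes with day 1 highest and 670 with day 1 lowest. The orders with attached in the middle held 632 genes with day 7 highest and 565 with day 1 highest. Tied levels touched 229 of these genes and were placed in the order of the states.

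**Figure D2:**
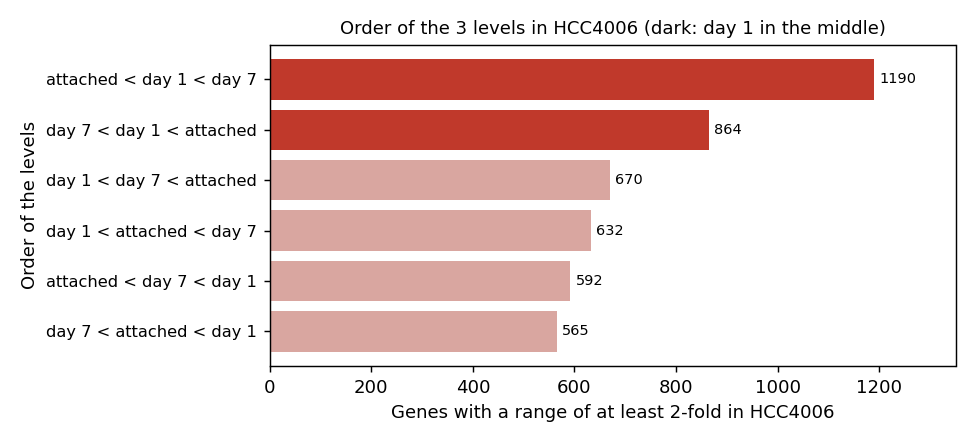
Number of genes with each order of the 3 HCC4006 levels, among the 4513 genes with a range of at least 2-fold, with dark bars where day 1 lies in the middle. The orders attached < day 1 < day 7 (1190 genes) and day 7 < day 1 < attached (864 genes) are the 2 longest bars.

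Day 1 lay between the other states for 45.5% of such genes in HCC4006, against 27.0% of 10122 genes in NCI-H2009, 36.2% of 5097 in LC-2/ad and 24.6% of 6215 in NCI-H2228. In NCI-H2228 day 1 was most often the highest state (46.0%), and in NCI-H2009 most often the lowest (40.6%). Of the 1650 genes higher in HCC4006 at day 7, 666 were already at least 2-fold higher at day 1, and 303 were at or below their attached level then. Their median log2 difference from attached was 0.80 at day 1 and 1.55 at day 7. Of the 1454 genes lower at day 7, 566 were already past 2-fold at day 1, and 289 were at or above their attached level. Their medians were -0.75 at day 1 and -1.52 at day 7. At day 7, 535 of the 1201 genes higher at day 1 and 579 of the 1145 lower were not past 2-fold that way. Each of these sets was chosen by its difference at 1 time. A median past 2-fold at that time is fixed by the choice, and smaller differences at the other time can follow from it. How far they do was not tested.

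Sharing with the other lines was counted as the same step past 2-fold in the same direction. At day 1, 129 of the 1201 genes higher in HCC4006 were also higher in all 3 other lines, 285 in 2 of them, 417 in 1 and 370 in none (30.8%). Of the 1145 lower genes, 105 were shared by all 3, 204 by 2, 416 by 1 and 420 by none (36.7%). At day 7 against attached, 89 of 1650 higher genes were shared by all 3 lines and 515 by none (31.2%), and 88 of 1454 lower genes by all 3 and 666 by none (45.8%). At day 7 against day 1, 31 of the 1324 higher genes (2.34%) and 35 of the 1152 lower (3.04%) were shared by all 3. Over all 17268 genes, 132 stood higher and 134 lower in all 3 other lines in that step. At day 1, 18.3%, 8.72% and 14.7% of all genes stood higher in NCI-H2009, LC-2/ad and NCI-H2228, and 19.9%, 7.4% and 10.0% lower. At day 7 against attached the shares were 18.6%, 10.1% and 8.44% higher and 13.2%, 7.65% and 10.0% lower. Most genes were thus past 2-fold in a given direction in none of these lines. Of genes shared by none, 66 higher and 35 lower at day 1 were below 1 CPM throughout the other lines. At day 7 against attached these were 82 and 49.

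**Figure D3:**
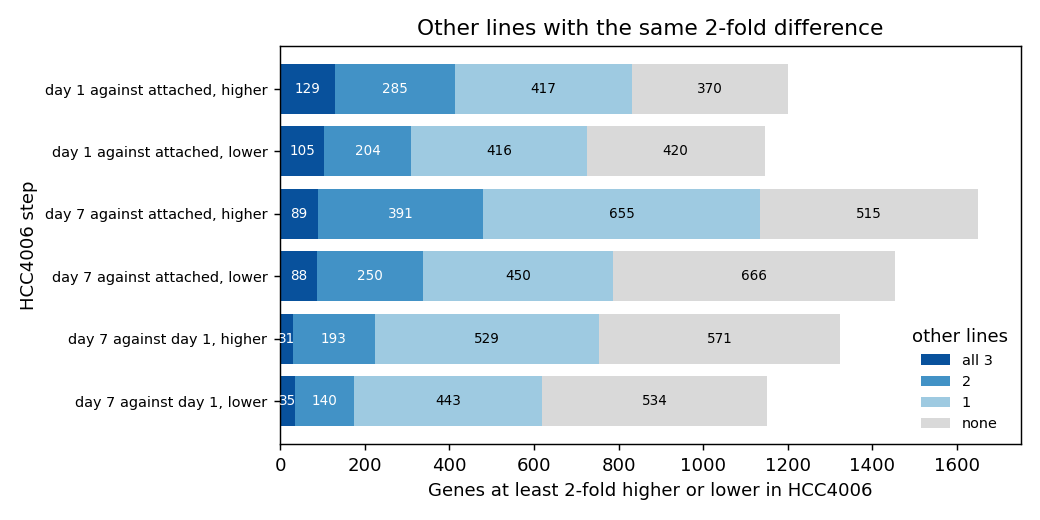
Genes at least 2-fold higher or lower in HCC4006 in each step, split by how many of the other 3 lines showed the same 2-fold difference. The share found in no other line was 30.8% for day 1 higher and 45.8% for day 7 lower. Most of all genes described were past 2-fold in a given direction in no other line.

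The reverse view shows how much of a common response HCC4006 carried. Of 342 genes at least 2-fold higher in all 3 other lines at day 1, 129 were so in HCC4006 (37.7%), and of 209 lower in all 3, 105 (50.2%). At day 7, 89 of 219 (40.6%) and 88 of 187 (47.1%) were past 2-fold in HCC4006. The number shared with a single line is to be read beside how many genes that line had past 2-fold. It did not always follow that number. At day 7, 825 of the higher HCC4006 genes were also higher in NCI-H2009. That is 50% of the HCC4006 genes, against 18.6% of all genes higher in NCI-H2009. It is 25.7% of the NCI-H2009 genes, against 9.56% of all genes higher in HCC4006. At day 1, 519 were also higher in NCI-H2228, 43.2% of the HCC4006 genes, against 14.7% of all genes in NCI-H2228. With NCI-H2009, 490 were shared at day 1, 40.8% of the HCC4006 genes, against 18.3% of all genes. With LC-2/ad, 365 were shared at day 1 (30.4%, against 8.72% of all genes) and 491 at day 7 (29.8%, against 10.1%). Of the other line's own higher genes, those shared at day 1 were 20.5% in NCI-H2228, 15.5% in NCI-H2009 and 24.3% in LC-2/ad. These are to be set beside the 6.96% of all genes higher in HCC4006 at day 1. For LC-2/ad at day 7 this share was 28.1%, against 9.56%.

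Across genes, HCC4006 differences at day 1 correlated at 0.35 with NCI-H2009 (13502 genes), 0.43 with LC-2/ad (13352) and 0.41 with NCI-H2228 (13457). At day 7 against attached the values were 0.44, 0.26 and 0.29, and at day 7 against day 1 they were 0.21, 0.07 and -0.07. These are Pearson values over genes with at least 1 CPM in a library of both lines. Genes are not independent, and the lines share state, kit and study, so they describe and test nothing.

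Whether any HCC4006 difference departed from the mean of the other 3 lines was tested with edgeR's quasi-likelihood interaction over the 12 libraries. This takes the spread between the other lines, with 4 residual degrees of freedom, and assumes that the lone HCC4006 course varies like theirs. None of 17395 genes (0%) passed an adjusted p of 0.05 at day 1 against attached, at day 7 against attached or at day 7 against day 1. Unadjusted p was below 0.05 for 240, 379 and 396 genes in these 3 steps (1.38%, 2.18% and 2.28%). Each is less than the share of 0.05 that evenly spread p-values would give. DESeq2 on the same design called 0, 4 and 13 genes. The results below are therefore described as HCC4006 values set beside those of the other lines, and none is called particular to HCC4006.

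The secretory genes BPIFB2, CST4 and CST1, all on chromosome 20, were among the 10 largest higher differences of HCC4006 at day 7. They were given as marker genes of the line with results of these data known, so their values are a description. BPIFB2 encodes a secreted protein of the BPI fold family and lies at chr20:33007704-33023703 (plus strand, GRCh38). It stood at 1.98 TPM attached, 6.6 TPM at day 1 and 218 TPM at day 7 in HCC4006. The 9 libraries of the other lines held at most 0.162 TPM. The log2 difference in HCC4006 was 1.79 at day 1 and 6.82 at day 7 against attached, and the estimated counts were 98, 296 and 9679.

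CST4 encodes cystatin S, a secreted inhibitor of cysteine proteases found in saliva and tears. It lies at chr20:23685640-23689040 on the minus strand and stood at 406 TPM attached, 1377 TPM at day 1 and 14301 TPM at day 7. Among protein-coding genes it held rank 385 attached, 77 at day 1 and 2 at day 7. CST1, cystatin SN, stood at 271, 857 and 7959 TPM in the same order and held rank 6 at day 7. CST2, cystatin SA, stood at 15, 43 and 146 TPM. The log2 differences at day 7 were 5.21 for CST4, 4.96 for CST1 and 3.36 for CST2. These 3 genes have near-identical sequences, so the split between them is uncertain.

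At day 7 the levels of CST1 and CST4 in the other lines were below those of HCC4006. CST1 stood at 8.79, 222 and 5.7 TPM in NCI-H2228, so that its day 1 level came near the 271 TPM of attached HCC4006, while LC-2/ad and NCI-H2009 held at most 7.79 TPM. CST4 reached 41.6 TPM in NCI-H2228 at day 1, against 1.94 TPM attached, and was 2.53 TPM there at day 7. In LC-2/ad it stood at 1.6, 2.73 and 7.45 TPM attached, at day 1 and at day 7, and in NCI-H2009 at 0, 0 and 0.082 TPM. The order of states thus differed between HCC4006, with day 7 highest, and NCI-H2228, with day 1 highest. LC-2/ad also had day 7 highest, with log2 differences from attached of 2.07 for CST4 and 1.40 for CST1. The interaction at day 7 against day 1 had an unadjusted p of 0.0302 for CST4 (edgeR, adjusted p 1) and did not pass. CST6, cystatin E/M, stood lower in the detached HCC4006 libraries, with 1347, 729 and 198 TPM, and was also at least 2-fold lower at day 7 in the other 3 lines. Of the 7 type 2 cystatins, 4 were at least 2-fold higher and 1 lower at day 7 in HCC4006 (median log2 difference 1.24). In LC-2/ad 5 were higher and 1 lower (median 1.40), in NCI-H2009 2 and 1 (0.40), and in NCI-H2228 0 and 2 (-0.45).

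**Figure D4:**
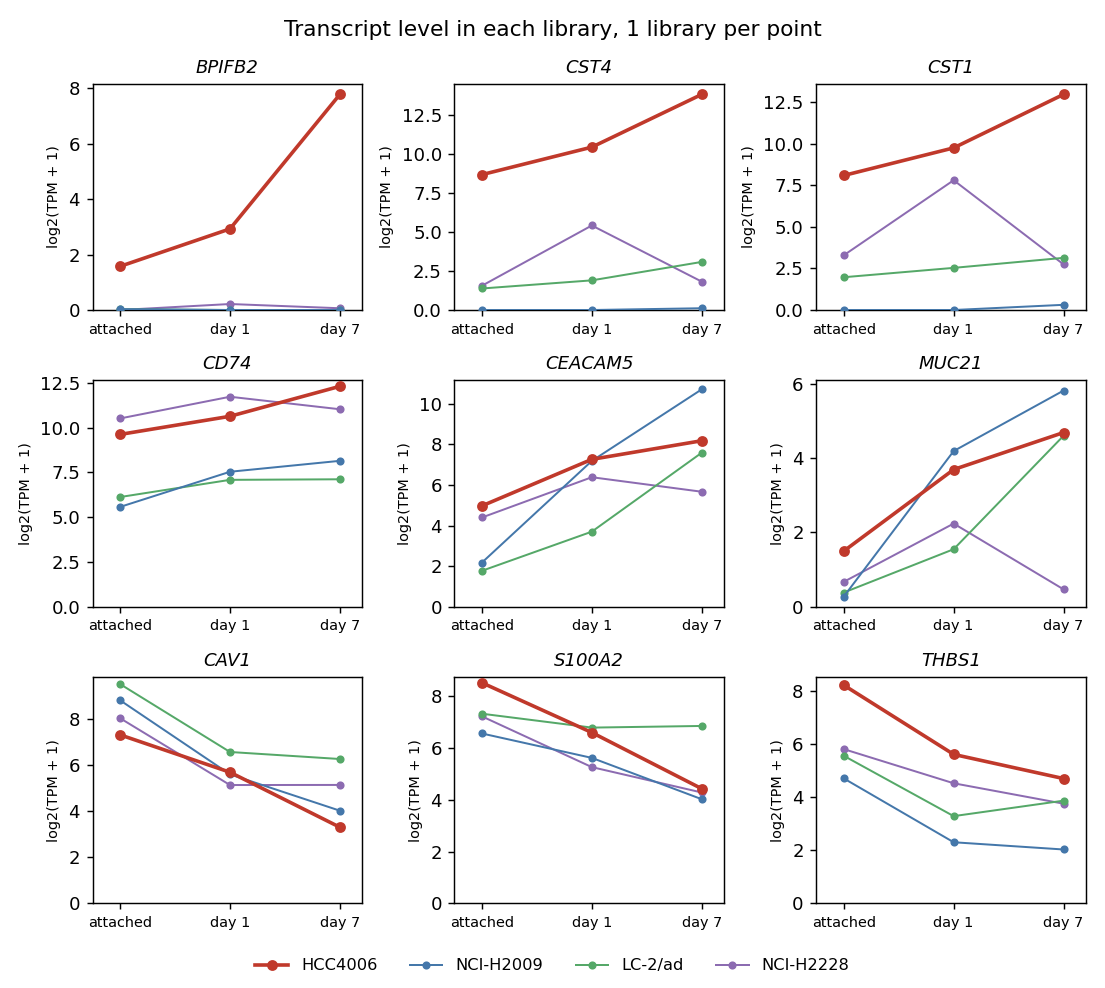
Level of 9 genes in each of the 12 libraries as log2(TPM + 1), with HCC4006 as the thick line and 1 point per library. BPIFB2, CST4 and CST1 were highest in HCC4006 at day 7, while CAV1, S100A2 and THBS1 were lower in each detached HCC4006 library than in the attached one.

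Secretory airway transcripts as a group stood higher at day 7. Of 20 genes listed 17 were measured. At day 1, 6 were at least 2-fold higher and 1 lower, with a median log2 difference of 0.88, and at day 7, 13 were higher and none lower, with a median of 2.49. The median over all 17268 genes was 0 in both steps. In the other lines the day 7 medians were 2.83 in NCI-H2009, 1.33 in LC-2/ad and 0.53 in NCI-H2228. The list was assembled with earlier results of these data known. Over all genes, 6.96% stood higher and 6.63% lower at day 1, and 9.56% and 8.42% at day 7, and the counts of this and the following lists are to be read against those shares.

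PIGR, the receptor that carries IgA across epithelia, stood at 83.2 TPM attached, 285 TPM at day 1 and 1210 TPM at day 7 in HCC4006. It was also at least 2-fold higher at day 7 in the other 3 lines, where it stayed at or below 53.6 TPM. BPIFB1, a relative of BPIFB2 at chr20:33273480-33309871, had counts of 0, 0 and 556, which makes it at least 217-fold higher at day 7 than attached, taking 3 counts as the floor of the attached library. CP, the ferroxidase ceruloplasmin, stood at 0.761, 0.411 and 25.2 TPM. Its CPM was higher at day 1 than attached although its TPM was lower, and TPM also depends on the length used for each gene.

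SCGB3A1, a secretoglobin, stood at 784, 1203 and 4338 TPM over the 3 states, while the other lines held at most 1.44 TPM. The antiprotease gene SLPI stood at 103, 194 and 541 TPM. AGR2, a chaperone of mucin folding, was highest at day 1, with 618, 1286 and 1024 TPM. The secretory transcripts therefore did not share 1 order of states.

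Alveolar type 2 genes followed in part. Of 12 listed 10 were measured, and 5 stood at least 2-fold higher and none lower at day 7, with a median of 0.91, against medians of 2.45 in NCI-H2009, 1.58 in LC-2/ad and -0.25 in NCI-H2228. NAPSA, an aspartic protease of surfactant processing, stood at 82.9, 221 and 705 TPM. SFTPA1, a surfactant protein, was at 0.499, 0.256 and 20.3 TPM. Its near-identical copy SFTPA2 was at 0.664, 2.28 and 13.3 TPM, so the split is uncertain. SFTPB, another surfactant protein, was highest at day 1, with 2.39, 11.4 and 4.77 TPM. NKX2-1, the lung lineage factor, stood at 49.6, 39.4 and 72.8 TPM.

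MHC class II genes, which present extracellular peptides to CD4 T cells, were higher in HCC4006 at both times and by most at day 7. All 10 listed genes were measured. At day 1, 7 stood at least 2-fold higher (median log2 difference 1.51), and at day 7 all 10 (median 3.58). Medians at day 1 were 1.69 in NCI-H2009, 0.96 in LC-2/ad and 1.30 in NCI-H2228, and at day 7 they were 2.36, 0.74 and 0.17. In NCI-H2228 no member was past 2-fold at day 7.

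CD74, the invariant chain that guides class II molecules, stood at 789 TPM attached, 1593 TPM at day 1 and 5089 TPM at day 7. HLA-DRA stood at 39.3, 124 and 436 TPM, and HLA-DRB1 at 17, 49.7 and 361 TPM. HLA-DRB5, a near-identical relative of HLA-DRB1, stood at 5.3, 15.3 and 117 TPM. In each case the 3 HCC4006 levels kept the order attached, day 1, day 7. NCI-H2228 had the higher attached level, with 836 TPM of HLA-DRB1, then 1669 TPM at day 1 and 916 TPM at day 7. CIITA, the coactivator that class II transcription needs, stood at 5.51, 7.04 and 9.8 TPM in HCC4006, a log2 difference of 1.02 at day 7. The day 7 interaction had an unadjusted p of 0.00497 for HLA-DRB1 (edgeR, adjusted p 1).

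Promoters of class II genes are known to share an X box, bound by the RFX complex, and a Y box, an inverted CCAAT element bound by NF-Y, through which CIITA acts. The 250 bases before the start of 8 of the 10 class II genes were found in RefSeq's promoters (GRCh38.p14). They were searched on both strands for the Y box letters CTGATTGG. These were held by 3 of the genes, HLA-DRB1, HLA-DQB1 and HLA-DMA, and by 3.81% of 35116 promoter windows. The windows of those 3 genes and of CD74, which held no match, are shown, and capitals mark the motif letters. HLA-DMB, HLA-DPA1, HLA-DPB1 and HLA-DQA1 also held no match and are not shown. Other forms of the CCAAT element were not searched, so a window with no match may still hold a Y box. All 10 class II genes stood at least 2-fold higher in HCC4006 at day 7.
HLA-DRB1: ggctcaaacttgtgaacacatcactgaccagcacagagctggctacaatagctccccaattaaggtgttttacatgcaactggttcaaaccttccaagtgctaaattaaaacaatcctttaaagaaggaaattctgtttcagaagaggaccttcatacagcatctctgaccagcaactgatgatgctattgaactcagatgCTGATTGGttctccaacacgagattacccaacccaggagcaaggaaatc
HLA-DQB1: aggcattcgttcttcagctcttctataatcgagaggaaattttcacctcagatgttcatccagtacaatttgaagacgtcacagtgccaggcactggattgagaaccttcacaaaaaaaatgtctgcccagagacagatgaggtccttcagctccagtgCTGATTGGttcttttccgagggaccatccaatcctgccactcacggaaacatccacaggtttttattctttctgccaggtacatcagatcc
HLA-DMA: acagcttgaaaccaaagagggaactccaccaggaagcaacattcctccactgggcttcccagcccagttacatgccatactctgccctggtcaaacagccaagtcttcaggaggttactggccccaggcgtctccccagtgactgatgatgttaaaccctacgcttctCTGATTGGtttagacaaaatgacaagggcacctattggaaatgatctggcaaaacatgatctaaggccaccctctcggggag
CD74: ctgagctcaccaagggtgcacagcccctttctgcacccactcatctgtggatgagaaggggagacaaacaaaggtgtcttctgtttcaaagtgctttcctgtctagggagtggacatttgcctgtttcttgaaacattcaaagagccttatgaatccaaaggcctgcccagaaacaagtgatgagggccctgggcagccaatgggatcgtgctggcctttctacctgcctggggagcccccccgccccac

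The regions are chr6:32589849-32590098, chr6:32666658-32666907 and chr6:32953098-32953347 on the minus strand of chromosome 6 and chr5:150412911-150413160 on the minus strand of chromosome 5. In HLA-DRB1 the Y letters began 49 bases before the start. HLA-DQB1, with its Y letters beginning 91 bases before the start, stood at 0.046, 0.58 and 5.49 TPM. HLA-DMA, with its Y letters 82 bases before the start, encodes a peptide-loading chaperone and stood at 91.9, 170 and 279 TPM. A match describes these letters only, and draws nothing about binding.

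Class I genes differed less. Of 14 measured, 1 was at least 2-fold higher at day 1 and 4 at day 7, with medians of 0.59 and 0.91. HLA-B stood at 512, 843 and 1360 TPM in HCC4006. NCI-H2009 had a day 7 median of 1.51, LC-2/ad 0.57 and NCI-H2228 0.04. Interferon-stimulated genes, which often accompany class I, had 1 of 19 members past 2-fold at day 7. That gene was IFI27, at 1151, 2441 and 2775 TPM.

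Transcripts of mitosis were lower in both detached libraries. Of 24 measured, 22 stood at least 2-fold lower at day 1 and 16 at day 7, none higher, with medians of -1.57 and -1.12. At day 7 the other medians were -1.97 in NCI-H2009, -0.98 in LC-2/ad and -2.63 in NCI-H2228. PLK1, a kinase of mitotic entry, stood at 349 TPM attached, 52.4 TPM at day 1 and 130 TPM at day 7. CCNB1, the mitotic cyclin B1, stood at 308, 60.3 and 122 TPM, and CENPF, a kinetochore protein, at 48.1, 10.2 and 31.1 TPM. For these 3 genes day 7 lay between day 1 and attached. CCNA2, cyclin A2, stood at 73.5, 20.9 and 21.9 TPM, and ANLN, of the cleavage furrow, at 97.5, 33.8 and 28.2 TPM, so not every member had that order. Between day 1 and day 7, 4 of the 24 genes stood at least 2-fold higher and none lower, with a median of 0.41. The medians were -0.12, -0.01 and 0.13 in NCI-H2009, LC-2/ad and NCI-H2228. In NCI-H2009 9 of the 24 stood higher and 4 lower, in LC-2/ad none either way, and in NCI-H2228 1 and 1.

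DNA replication genes were closer to their attached level. Of 20 measured, 2 stood at least 2-fold lower at day 1 and 4 at day 7, with medians of -0.36 and -0.72. MCM4, of the replicative helicase, stood at 92.5, 60.4 and 32.8 TPM. In NCI-H2228 17 of the 20 were lower at day 1. CDKN1A, the CDK inhibitor p21, stood at 139, 109 and 51 TPM in HCC4006. It had day 7 log2 differences of -1.34 in HCC4006, 2.31 in NCI-H2009, 0.79 in LC-2/ad and -0.92 in NCI-H2228, with an interaction p of 0.161 unadjusted (edgeR, adjusted p 1).

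Transcripts of adhesion and of matrix-sensing pathways were lower in part. Caveolae are membrane pits that flatten under tension, and 4 of their 5 coat genes stood at least 2-fold lower at day 7, with a median of -1.19. CAV1 stood at 159 TPM attached, 50.9 TPM at day 1 and 8.9 TPM at day 7. It was also at least 2-fold lower at both times in each other line. At day 1 only CAV1 of the 5 was past 2-fold in HCC4006, against 5 in NCI-H2009, 4 in LC-2/ad and 3 in NCI-H2228.

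Of 22 YAP and TAZ targets, 7 stood lower at day 1 and 6 at day 7, none higher, with medians of -0.72 and -0.66. CCN2, a matricellular protein, stood at 63.7, 13.5 and 9.6 TPM, and CCN1, a related protein, at 155, 61 and 46.7 TPM. In LC-2/ad both were above their attached level at day 7, with log2 differences of 0.80 for CCN2 and 0.65 for CCN1. Of 13 TGF-beta and BMP targets, 4 stood lower and none higher at day 7, with a median of -0.79. PMEPA1, a feedback inhibitor of TGF-beta signalling, stood at 373, 65.2 and 58.8 TPM, and TGFBI, a secreted matrix protein, at 966, 326 and 287 TPM.

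Among 16 measured genes of plasminogen activation and matrix proteolysis, 4 stood at least 2-fold higher and 7 lower at day 7. PLAU, the plasminogen activator urokinase, stood at 484, 496 and 1175 TPM, with day 7 highest.

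Matrix genes were split. Of 20 measured, 1 stood at least 2-fold higher and 7 lower at day 7, with a median of -0.55. THBS1, the adhesive glycoprotein thrombospondin 1, stood at 297, 47.9 and 25 TPM, and was at least 2-fold lower in the 3 other lines too. COL4A1, a basement membrane collagen, stood at 48.3, 10 and 7.25 TPM. SPARC, a collagen-binding protein, was the member that stood higher, at 1330, 2657 and 4524 TPM. Its log2 difference at day 7 was 1.94 in HCC4006, against -0.71 in NCI-H2009, -0.83 in LC-2/ad and -3.23 in NCI-H2228 (interaction p 0.0124 unadjusted, edgeR adjusted p 1).

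Of 11 keratins measured, 1 stood higher and 6 lower at day 7 in HCC4006, with a median of -1.36 (-0.76 on log2(TPM + 1)), against -0.45, 0.22 and -0.56 in NCI-H2009, LC-2/ad and NCI-H2228. KRT7, a simple-epithelium keratin, stood at 5175, 2441 and 1907 TPM, and KRT80 at 98.6, 32.3 and 27.3 TPM. Epithelial junction genes differed less, with 3 of 18 at least 2-fold higher at day 7 and none lower. CLDN3, a tight junction claudin, stood at 69.2, 94.6 and 225 TPM. Integrin and focal adhesion genes had a median of -0.26, and their 1 of 20 higher and 2 lower are near the shares over all genes (9.56% and 8.42%). FERMT1, an integrin activator, stood at 22.1, 13.2 and 15.1 TPM, and ITGB5 at 222, 127 and 92.9 TPM.

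**Figure D5:**
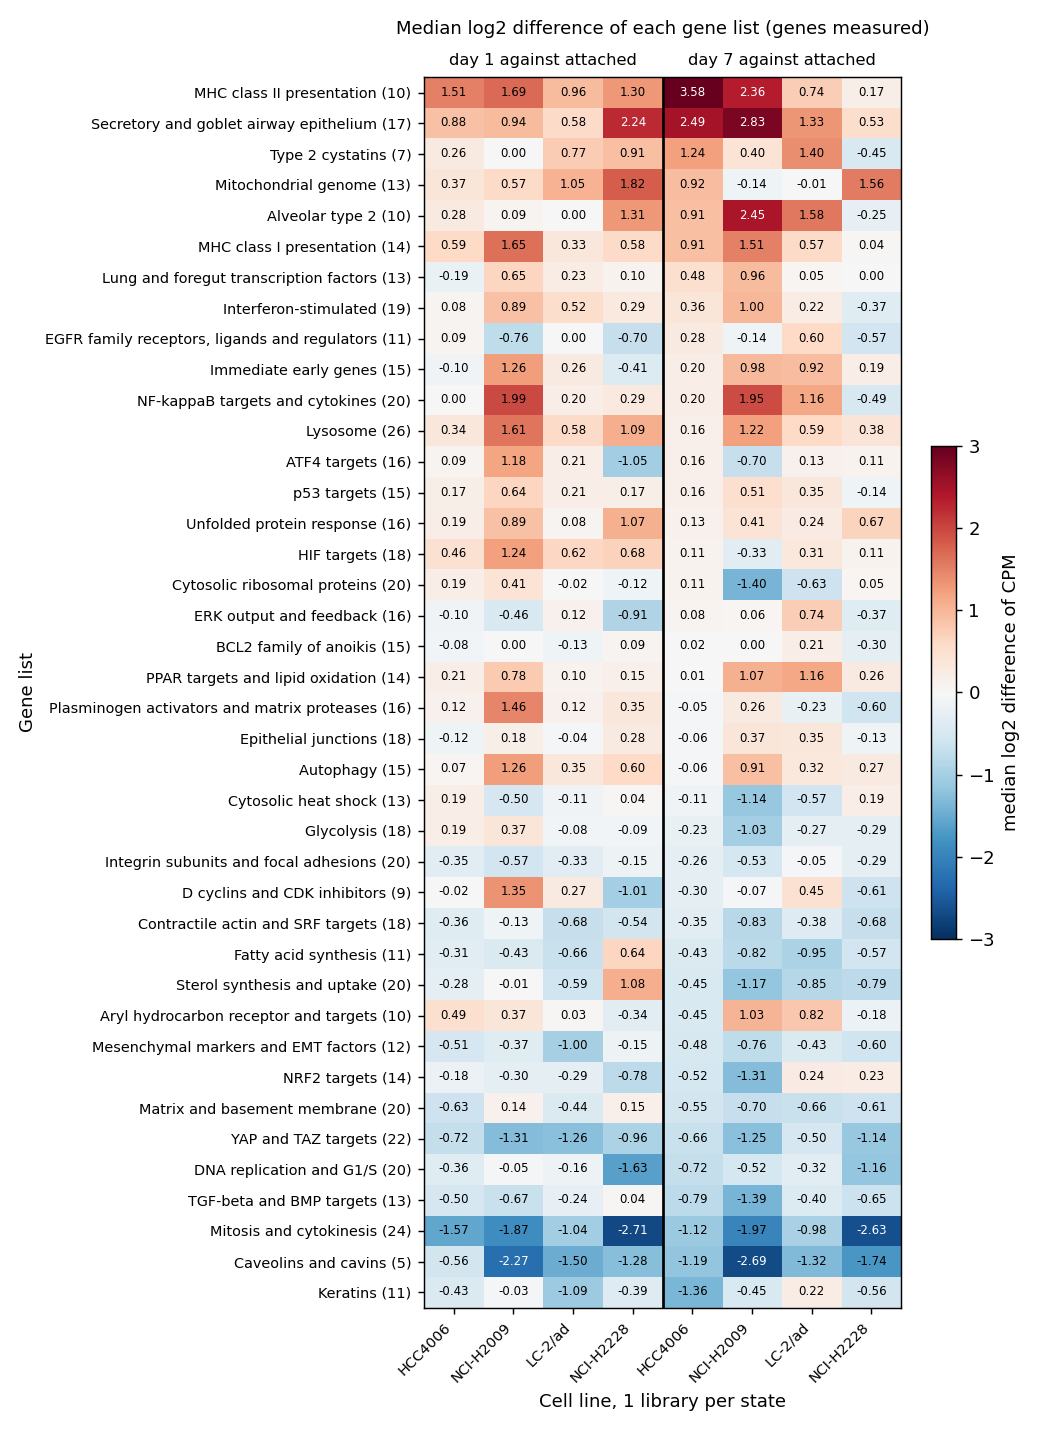
Median log2 difference of the gene lists at day 1 and day 7 against attached, with HCC4006 as the left column of each block and the number of measured genes in brackets. MHC class II (3.58) and secretory genes (2.49) top the HCC4006 day 7 column and keratins (-1.36) end it, which on log2(TPM + 1) stand at 2.66, 1.76 and -0.76, with caveolae (-1.27) then last.

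The 10 genes with the largest higher values at day 1 included MUC21, a transmembrane mucin, at 1.82 TPM attached, 11.9 TPM at day 1 and 24.7 TPM at day 7. CEACAM5, a glycoprotein of the epithelial surface, stood at 30.4, 153 and 290 TPM, and PAEP, the secreted lipocalin glycodelin, at 4.28, 23.5 and 63.9 TPM. These 3 genes were at least 2-fold higher at day 1 in each of the other lines. SLC5A8, a monocarboxylate transporter, stood at 1.85, 10.1 and 30.4 TPM and was at or below 0.009 TPM in the other lines. In all, 5 of the 10 were shared by the 3 other lines and 2 by none, and of the 10 largest lower values 7 were shared by the 3 other lines. MT2A, a metal-binding metallothionein, was among those, at 2466, 431 and 485 TPM.

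At day 7 the sharing was less. None of the 10 largest higher values was at least 2-fold higher in all 3 other lines, 4 were so in 2 lines and 2 in none. Some of this sharing rests on very low day 7 levels. In NCI-H2009 CST1 stood at 0.242 TPM and HLA-DRB5 at 0.267 TPM, and in NCI-H2228 BPIFB2 at 0.045 TPM. Of the 10 largest lower values, 3 were shared by the 3 lines, CAV1, THBS1 and LOXL2, a collagen cross-linking enzyme. S100A2, a calcium-binding protein of squamous and basal cells, stood at 368, 96.3 and 20.6 TPM. The secreted proteases KLK6 and KLK5 stood at 151, 72.2 and 14.4 TPM and at 137, 75.6 and 13.4 TPM. On the log2 scale most of their difference lay between day 1 and day 7. KLK6 differed by -1 at day 1 against attached and -2.44 at day 7 against day 1, and KLK5 by -0.81 and -2.47.

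Some genes peaked at day 1. TFF1, a mucosal trefoil peptide, stood at 8.72 TPM attached, 26.3 TPM at day 1 and 2.62 TPM at day 7. Day 1 was the highest state of TFF1 in the other lines as well, at 1.16 TPM in NCI-H2009, 2.84 TPM in LC-2/ad and 93.9 TPM in NCI-H2228. FGF19, an FGFR4 ligand, stood at 214, 424 and 71.4 TPM in HCC4006 while its highest level elsewhere was 7.08 TPM, in LC-2/ad at day 7. HBEGF, a ligand of EGFR, stood at 1.7, 5.19 and 1.47 TPM.

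In the EGFR family list 3 of 11 measured genes were at least 2-fold higher at day 7, a larger share than the 9.56% over all genes, and none was lower. ERBB3, a partner receptor of EGFR, stood at 31, 29.2 and 51.5 TPM, and LRIG1, a negative regulator of the family, at 4.35, 5.97 and 15.4 TPM. Of 16 ERK output genes, 1 stood past 2-fold at day 7, against 18% of all genes in either direction. It was FOSL1, an AP-1 subunit, at 43.6, 19.8 and 12.1 TPM. CCND1, cyclin D1, stood at 919, 719 and 460 TPM. At day 1 the ERK list had 2 lower members in HCC4006, against 5 lower in NCI-H2009, 2 in LC-2/ad and 8 in NCI-H2228.

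Several stress and metabolic lists had medians nearer 0 in HCC4006 than in at least 1 other line, at the step given for each. Whether they differ between lines was not tested. The lysosome list had a day 1 median of 0.34 with 1 of 26 members past 2-fold, against 21 higher in NCI-H2009 (median 1.61), 3 in LC-2/ad (0.58) and 14 in NCI-H2228 (1.09). The ATF4 list had a median of 0.09 with none of 16 past 2-fold, against medians of 1.18, 0.21 and -1.05. Unfolded protein response genes had a median of 0.19, against 0.89, 0.08 and 1.07. Sterol synthesis genes had none of 20 past 2-fold in HCC4006 at day 7 (median -0.45), against 13 lower in NCI-H2009, 9 in LC-2/ad and 5 in NCI-H2228. NF-kappaB targets had a day 7 median of 0.20, against 1.95, 1.16 and -0.49. At the step not given above, the lysosome and unfolded protein lists (day 7: 0.16 and 0.13) and the NF-kappaB list (day 1: 0) were nearest 0 in HCC4006. The ATF4 list at day 7 was not, at 0.16 against -0.70, 0.13 and 0.11 in NCI-H2009, LC-2/ad and NCI-H2228. Nor was the sterol list at day 1, at -0.28 against -0.01, -0.59 and 1.08.

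Single members of these lists did differ. CTSS, a lysosomal protease of class II antigen processing, stood at 19, 49.7 and 67.9 TPM. XBP1, a factor of secretory cells, stood at 294, 365 and 635 TPM. SLC2A1, the glucose transporter and a HIF target, stood at 145, 83.4 and 44.2 TPM, and PDK4, a brake on pyruvate oxidation, at 0.531, 1.72 and 6.39 TPM. PDK4 was at least 4-fold higher at day 7 in all 4 lines. Of the 15 BCL2 family genes of anoikis, none stood at least 2-fold higher in HCC4006 at day 1 or day 7 and 1 stood lower at each time.

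Transcripts of the mitochondrial genome stood higher, with 5 of 13 past 2-fold at day 7 and none at day 1 (medians 0.92 and 0.37). They took 1.49% of TPM attached, 1.94% at day 1 and 2.68% at day 7. MT-CO3, of cytochrome oxidase, stood at 2520, 3174 and 5573 TPM. The day 7 medians of the other lines were -0.14 in NCI-H2009, -0.01 in LC-2/ad and 1.56 in NCI-H2228. Cytosolic ribosomal protein genes had a median of 0.11 at day 7 with none of 20 past 2-fold, against -1.40 in NCI-H2009 (18 lower), -0.63 in LC-2/ad and 0.05 in NCI-H2228.

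The smallest unadjusted p of the interaction fell mostly on low transcripts, and none passed. For day 7 against attached they belonged to ZNF391, NPR3, PODXL2, NEFH and CD302. NPR3, the natriuretic peptide clearance receptor, stood at 4.33, 2.68 and 0.669 TPM in HCC4006. Its interaction was -5.07 ± 1.05 (SE, log2) with an unadjusted p of 0.00134 in edgeR (adjusted p 1), while DESeq2 gave an adjusted p of 0.00722. CD302, a C-type lectin receptor, stood at 2.83, 7.54 and 24.3 TPM, with an interaction of 3.34 ± 0.71 and an unadjusted p of 0.00157 in edgeR (adjusted p 1). DESeq2 gave CD302 an adjusted p of 0.0225.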

How the data were processed

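RNA was sequenced from 12 libraries, 3 states of 4 cell lines, with 31134389 to 41881984 estimated counts each. The authors deposited, per gene, an estimated count and a TPM value in separate columns, per the file headers. Reads were set against GRCh38, per the submitters' processing notes. For the aligner, quantifier, strand setting and annotation release no source used here gives a name. Of counts above 0, 31.5% were not whole, and all were rounded to whole numbers.

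Libraries were scaled with TMM in edgeR 4.0.16 (R 4.3.3), and differences within a line are log2 CPM (prior count 2) over the 17268 of 60715 genes with at least 1 CPM in at least 1 library. A difference counted from 2-fold. A precision limit is that 1 count equals 0.0239 to 0.0321 CPM. Bounds use a floor of 3 counts per library and cover counting error only. The interaction was fitted by edgeR's quasi-likelihood test with line as a block, state, and state within HCC4006, since the 3 states of a line come from the same cell line, which pairs them. DESeq2 1.42.0 and limma 3.58.1 served as alternatives, besides other scaling, prior counts, filters and left-out lines. Labels do not give separate cultures as replicates, so p-values measure the spread between lines.

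The members and lists were chosen with earlier results of these data known. Named genes are the 10 largest higher and 10 largest lower protein-coding genes of each step against attached, and the 5 of each for day 7 against day 1. At least 10 TPM in the higher library was required. They further include the 5 smallest interaction p per step, the 2 to 4 members of each list with the largest day 7 difference and at least 5 TPM, the given markers and EGFR. Genes outside that rule, such as AGR2, CD74, CIITA, HLA-DRA, HLA-DMA, HBEGF, KRT7, KRT80, NKX2-1, PIGR, PLAU, SCGB3A1, SLPI, SPARC and CCN1, were chosen after their values were seen. One gene that the rule names is not reported here. Sequences are RefSeq's. Figures were drawn with matplotlib 3.10.9 in Python 3.11.15.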

Additional observations from a re-analysis of the deposited data

Results flagged for a closer look

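The named genes and list members with at least 1 CPM in every line were screened for opposite signs. In 9 cases HCC4006 was past 2-fold one way while all 3 other lines stood the other way by any amount. The edgeR interaction gave each an adjusted p of 1. Some values were small, as 0.11 in NCI-H2009 for PLAUR at day 7. Only HBEGF, MUC16 and NPR3 were past 2-fold the other way in all 3 lines. Over all genes, 8 of 1201 higher and 13 of 1145 lower HCC4006 genes were so at day 1. At day 7 against attached these were 5 of 1650 and 19 of 1454. The number screened is not given, so whether 9 exceeds scatter was not tested. At day 1 against attached the log2 difference of HBEGF, an EGFR ligand, was 1.67 in HCC4006, against -1.47 in NCI-H2009, -1.55 in LC-2/ad and -3.73 in NCI-H2228 (unadjusted p 0.0236). HEG1, an endothelial and epithelial junction receptor, was at 1.18, against -1.26, -1.72 and -0.51 in the same lines (unadjusted p 0.00415). EREG, another EGFR ligand, was at 1.04, against -3.21, -0.76 and -3.62, and MUC16, a surface mucin, at -1.55, against 1.77, 1.65 and 2.05.

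At day 7 against attached NPR3 was at -2.64, against 2.74, 2.27 and 1.78 (unadjusted p 0.00134). PODXL2, a podocalyxin-like sialomucin, was at -1.58, against 0.89, 0.36 and 1.31 (unadjusted p 0.00143). SPARC was at 1.94, against -0.71, -0.83 and -3.23. PLAUR, the urokinase receptor, was at -1.07, against 0.11, 1.63 and 0.04. FOSB, an AP-1 subunit, was at -2.46, against 0.21, 0.70 and 2.25. EREG, MUC16 and FOSB stayed below 1 TPM in all 3 HCC4006 libraries.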

How the results depend on the processing

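Without a filter on low counts the HCC4006 genes past 2-fold numbered 5203 at day 1 (2765 higher, 2438 lower), 6156 at day 7 (3367 and 2789) and 5861 at day 7 against day 1 (3064 and 2797). On log2(TPM + 1), which compresses low levels, they numbered 723 (296 and 427), 1196 (591 and 605) and 642 (376 and 266). With DESeq2's size factors or a prior count of 0.5 all 9 counts stayed within 1.5 times. No list median or named gene changed sign past 2-fold, though log2(TPM + 1) moved 9 of 132 medians and 51 of 168 gene values, and a prior count of 0.5 moved 20 of 168. Of these medians, those at day 7 included 2.66 for MHC class II, 1.76 for secretory genes and -0.76 for keratins, and the lowest were then caveolae (-1.27) and mitosis (-1.17).

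The interaction called 0 genes in edgeR under each alternative, limma included, and 0 to 0 with each other line left out. DESeq2's Wald test called 0, 4 and 13. Leaving out the NCI-H2009 day 1 library, an alternative chosen after seeing the data, gave 0 calls. Without the replicate block, the pairing by cell line, calls were also 0. For the other 3 lines alone edgeR called 0 genes at day 1 and day 7, 88 and 25 with no filter on low counts, and DESeq2 1259 and 645. The cause was not tested. One library per state limits every difference within HCC4006.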
